A study of Mus musculus with 21 samples.

Results

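The vitamin D receptor (VDR) had pooled peaks in colon, small intestine (SI) crypt and SI villus at 2308 distal positions of the mouse genome. These lay in open chromatin of at least 1 compartment. Such a site was a pooled colon VDR-binding peak that shared at least 1 bp with a pooled peak of SI crypt and with one of SI villus, had its midpoint more than 1 kb from every transcription start site (TSS) of a protein-coding gene, and touched a pooled ATAC-seq peak of 1 or more compartments. The starting list held 22882 colon peaks, of which 5696 were shared by the 3 compartments and 3305 were shared and distal, so the sites made up 10.1% of the colon list. The other 997 distal shared peaks touched no ATAC-seq peak and are called closed distal sites, and the 2391 shared peaks nearer to a TSS are called promoter sites. Both serve for comparison.

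VDR is the nuclear receptor of 1,25-dihydroxyvitamin D3 (1,25(OH)2D3). It binds DNA together with the retinoid X receptor, typically on a DR3, a direct repeat of 2 half-sites of 6 bases with a spacer of 3 bases. In the intestine it is known for switching on the genes of calcium absorption, and many of its binding positions are enhancers, which lie far from the promoters they act on. ATAC-seq marks open chromatin, because its transposase inserts into DNA that is not wrapped in nucleosomes.

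VDR ChIP-seq was done on 4 samples per compartment from C57BL/6J mice given 10 ng/g 1,25(OH)2D3 1 h earlier, 4 to 6 weeks old by the sample labels, while the methods of the study describe older animals. ATAC-seq was done on 3 samples per compartment from C57BL/6J mice 90 days old, which the methods describe as untreated although the labels carry the injection protocol. ChIP-seq of vehicle-treated mice was not analysed here, and the values do not show a change with treatment. Colon, crypts and villi shared a set of mice and no source ties a sample to an animal. A p-value here measures only how far these samples spread. Tests between compartments, and tests over the 12 VDR samples together, treat samples that may share a mouse as independent. Colon was the mucosa of the whole organ, crypts and villi came from the duodenum, and every sample was a mixture of cell types. SI crypt and SI villus are called crypt and villus below, and samples are named by compartment and replicate number.

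The promoters of the 5 epithelial marker genes, Epcam and Vil1 among them, had an ATAC-seq peak in all 9 samples, and those of 4 immune markers in none. Of 5 colon markers, Hoxb13 was open in 3 colon samples, but Car1 and Slc26a3 had no peak anywhere. VDR samples held 10588783 to 17970894 fragments and 1136 to 13381 peaks, and ATAC samples 32767083 to 62692175 tags. Crypt 1, villus 1 and villus 2 stood apart among the VDR samples. Over the 114 sites called in all 12 samples, their log2 fold enrichments correlated at 0.784 to 0.919 with one another, but with those of the other 9 samples at a median of 0.456, where the other 9 had a median of 0.695 among themselves. Crypt 1 also kept the fewest fragments after filtering (3100376) and had the most peaks (13381). Results for calls per sample are given with and without these 3 samples.

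The sequences of some sites come first, because the repeat is what VDR is known to read. A half-site was searched in its textbook form AGGTCA and in the closely related form GGGTCA, to which were added AGTTCA as the next permitted spelling and finally GGTTCA, on both strands of the 200 bp centred on the colon summit. A DR3 without mismatch to these is called strict. Sequences are from the mm9 reference, on the strand that carries the repeat, with its half-sites in capitals. The first set shows 5 of the 10 strongest sites with a strict DR3, each with 20 bases on either side.

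Daglb, chr5:144195410-144195464, minus strand: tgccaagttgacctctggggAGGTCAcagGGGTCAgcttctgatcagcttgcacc
Asap1, chr15:64162673-64162727, minus strand: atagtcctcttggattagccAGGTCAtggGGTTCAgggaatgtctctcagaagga
Pip5k1b, chr19:24591711-24591765, minus strand: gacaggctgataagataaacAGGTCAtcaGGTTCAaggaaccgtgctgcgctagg
Commd9, chr2:101874710-101874764, minus strand: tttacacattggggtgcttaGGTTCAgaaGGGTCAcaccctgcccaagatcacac
Bach1, chr16:87681627-87681681, minus strand: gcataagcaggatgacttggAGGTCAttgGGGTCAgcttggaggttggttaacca

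The centre of the repeat lay 3 to 6 bp from the VDR summit in these 5, but 46 bp from it in the Ccdc102a site, which is also among the 10. Their nearest genes are of different kinds. Daglb encodes a diacylglycerol lipase, Asap1 a GTPase-activating protein for ARF, and Pip5k1b a phosphatidylinositol phosphate kinase. Bach1 encodes a heme-regulated repressor of transcription.

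The second set gives the 200 bp around the 3 sites of highest -log10 q in colon, the strength of a peak in the MACS2 test against local background. None of them held a strict DR3. The best repeat had 1 mismatch in the Slc30a10 site and in the site downstream of Cyp24a1, and 2 mismatches in the Ptprj site.

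Slc30a10, chr1:187326573-187326772, plus strand: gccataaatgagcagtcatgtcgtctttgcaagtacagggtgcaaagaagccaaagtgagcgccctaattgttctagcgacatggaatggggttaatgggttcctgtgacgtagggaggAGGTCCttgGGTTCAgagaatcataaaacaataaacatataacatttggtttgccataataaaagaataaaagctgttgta
Cyp24a1 distal site, chr2:170287218-170287417, minus strand: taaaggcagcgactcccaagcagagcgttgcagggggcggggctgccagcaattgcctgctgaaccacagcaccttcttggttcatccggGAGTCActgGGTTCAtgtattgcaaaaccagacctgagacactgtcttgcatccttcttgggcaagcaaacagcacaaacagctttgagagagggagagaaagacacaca
Ptprj, chr2:90328278-90328477, minus strand: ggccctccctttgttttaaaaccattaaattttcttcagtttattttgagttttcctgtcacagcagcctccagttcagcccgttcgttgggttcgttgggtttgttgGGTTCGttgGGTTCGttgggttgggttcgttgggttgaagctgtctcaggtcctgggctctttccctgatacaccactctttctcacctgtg

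The Ptprj window held repeated words, with TGGGTT present 7 times and GGTTCG 4 times on the printed strand. The third set shows sites near genes of transport, which also held a repeat with 1 mismatch.

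Trpv6, chr6:41588299-41588353, plus strand: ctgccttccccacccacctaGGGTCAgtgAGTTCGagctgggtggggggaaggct
S100g, chrX:159425171-159425225, plus strand: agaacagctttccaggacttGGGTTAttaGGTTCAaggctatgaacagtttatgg
Slc37a2, chr9:37054071-37054125, plus strand: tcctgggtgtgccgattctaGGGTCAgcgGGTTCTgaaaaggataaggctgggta

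Trpv6 encodes the apical calcium channel, S100g the calcium-binding protein calbindin-D9k, and Slc37a2 a transporter of sugar phosphates. In the S100g site the repeat was 3 bp from the summit and in the Trpv6 site 46 bp.

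A strict DR3 was present in 65 of the 2308 sites (2.82%, 95% Wilson interval 2.22 to 3.57%) and in 0 of the 2308 flanking windows 1 kb away. Closed distal sites had one more often, 94 of 997 (9.43%, 7.77 to 11.4%), and promoter sites less often, 24 of 2391 (1.00%, 0.675 to 1.49%), with intervals that do not overlap. Over all colon peaks the share was 2.05%. With up to 1 mismatch, 386 open distal sites held the repeat (16.7%, 15.3 to 18.3%), compared with 28 of their flanks (1.21%). That share was 27.3% (24.6 to 30.1%) for closed distal sites and 6.98% (6.03 to 8.08%) for promoter sites. Intervals cover counting error only, and sites are not replicates of an animal.

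The spacer of 3 was the most frequent one. With up to 1 mismatch, 5.46% of the open distal sites held a repeat with a spacer of 0, 6.98% with 1, 6.28% with 2, 16.7% with 3 and 7.54% with 4 bases, and spacers of 5 to 8 bases gave 3.29 to 4.81%. In the flanks no spacer was above 3.12%. A spacer of 4 is the arrangement read by thyroid hormone and oxysterol receptors, and its 7.54% (6.53 to 8.69%) at summits stood against 1.04% in flanks. The strict DR3 lay close to the summit, at a median of 6 bp, and 41 of 65 (63.1%) were within 20 bp of it.

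**Figure D1:**
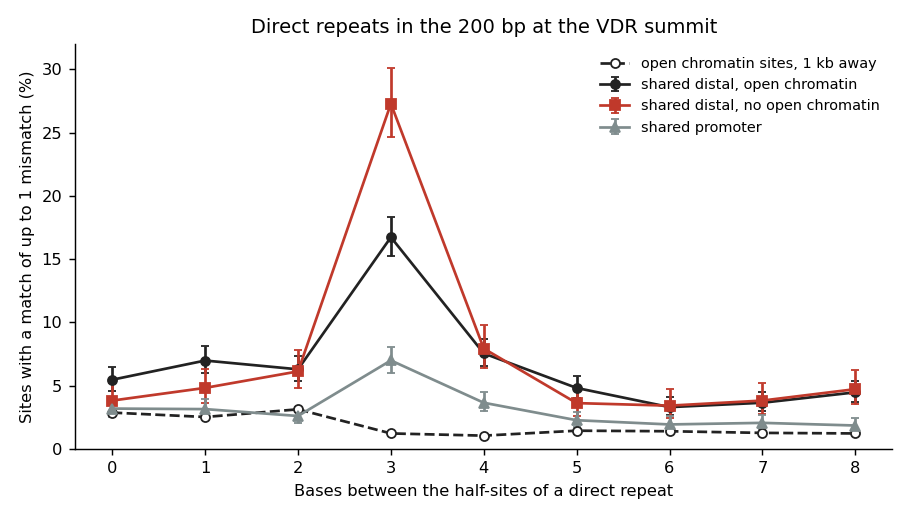
Percent of sites with a direct repeat of up to 1 mismatch in the 200 bp at the colon VDR summit (vertical axis) by the number of bases between its half-sites (horizontal axis), for open distal, closed distal and promoter sites with 95% Wilson intervals and for the flanks of the open distal sites. The spacer of 3 gives the highest value in each set of sites, 27.3% in closed distal, 16.7% in open distal and 6.98% in promoter sites, and 1.21% in the flanks.

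Stronger sites held the repeat more often. With up to 1 mismatch the share of open distal sites was 5.99% up to a colon -log10 q of 10 (618 sites), 10.7% between 10 and 20 (525 sites), 18.5% between 20 and 50 (650 sites) and 33.6% above 50 (515 sites). Closed distal sites had 12.1%, 30.3%, 42.2% and 57.0% in the same ranges, higher than the open sites each time. Sites open in 1 compartment had a share of 23.3% (19.6 to 27.5%, 103 of 442), sites open in 2 had 20.04% (16.8 to 23.7%, 103 of 514), and sites open in all 3 had 13.3% (11.6 to 15.2%, 180 of 1352).

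Words of other transcription factors were searched in the same windows. The AP-1 word TGANTCA, bound by Fos and Jun proteins, was present in 11.1% of open distal sites (9.87 to 12.4%), 4.85% of their flanks, 6.02% of closed distal sites and 7.38% of all colon peaks. HNF4A, a nuclear receptor of the gut epithelium (CAAAGTCCA), had 2.17% at sites and 0.303% in flanks, and GATA factors (AGATAAG) 4.33% and 2.82%. For CDX2, the homeobox factor of intestinal identity (TTTATNG), the shares were 9.66% and 9.06%. FOXA (TGTTTAC) had 2.34% and 2.95%, C/EBP (TTGNGCAA) 2.34% and 1.65%, TCF7L2 (CTTTGAT) 3.55% and 3.38%, ETS (CCGGAAGT) 0.737% and 0.173%, and KLF (CCNCNCCC) 26.5% and 18.7%. The longer words had 1.26% and 0.563% for CTCF, and 0.303% and 0.0867% for BACH1 with MAFK, whose word contains that of AP-1. G and C made up 51.7% of the bases at sites and 46.4% in flanks, and the part of this in the shares was not tested.

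The midpoint of 1196 sites (51.8%) was intergenic and that of 930 (40.3%) in an intron, and the others fell in a coding exon (94) or an exon of an untranslated region (88). Closed distal sites were intergenic in 41.2% of cases. The median distance to the nearest gene start was 19.5 kb. It was at most 10 kb for 723 sites, up to 50 kb for 1027 more, up to 100 kb for 298 and larger for 260. Of all sites, 903 lay upstream of that start and 1405 downstream. At the limit of 1 kb, 30 sites were kept with a distance less than 100 bp above it, and 37 shared open peaks were left out with a distance less than 100 bp below it.

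Some sites lay in repeated sequence. The window was multi-copy, with a median of 2 or more exact copies of its 31-base words in the genome, at 296 of 2308 sites (12.8%), 117 of 997 closed distal sites (11.7%) and 52 of 2391 promoter sites (2.17%). On chromosome X, 69 sites had summits from 121029827 to 122516903, and 68 of them were multi-copy. The 4 genes with most sites within 100 kb lay there, Gm17714 with 15, Gm17297 with 14, Gm17693 with 8 and Vmn2r121, a vomeronasal receptor gene, with 7. On chromosome Y, 22 of 42 sites were multi-copy. Reads of such copies cannot be placed with certainty, so these sites are uncertain. Among single-copy sites Slc30a10 had the most, 6, followed by 9130230L23Rik, Chd2 and Mgat4a with 5 each.

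Although the rule asked for open chromatin in only 1 compartment, 1352 sites (58.6%) touched a pooled ATAC-seq peak in all 3. Crypt and villus alone were open at 358 sites, villus alone at 198, crypt alone at 178, colon and villus at 105, colon alone at 66, and colon and crypt at 51. By compartment 1574 sites were open for colon (68.2%), 1939 for crypt (84.0%) and 2013 for villus (87.2%), from pooled lists of 39428, 74734 and 64782 ATAC-seq peaks. VDR and ATAC summits were close together, at a median of 95 bp for colon and 96 bp for crypt. The VDR summit itself was inside the ATAC-seq peak at 75.5% of the sites open in colon, 66.7% of those open in crypt and 77.6% of those open in villus.

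**Figure D2:**
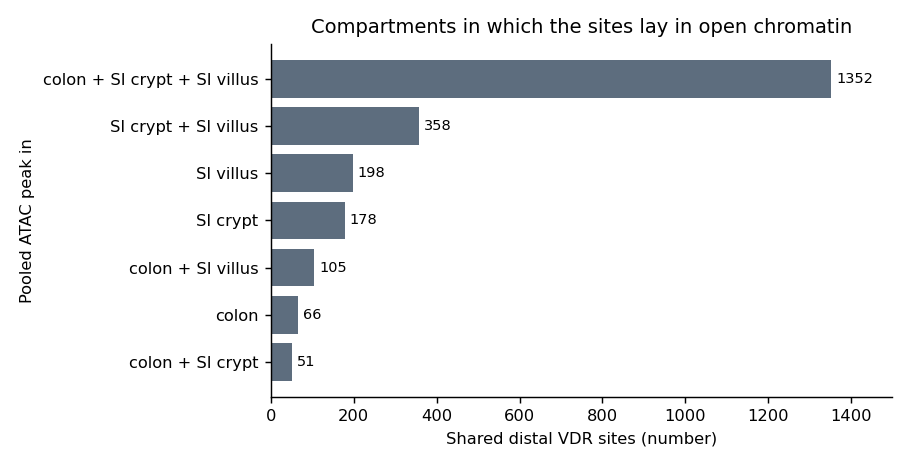
Number of shared distal VDR sites by the compartments in which a pooled ATAC-seq peak touched them. All 3 compartments account for 1352 sites and colon alone for 66.

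The ATAC samples of colon each touched 42.1, 51.9 and 59.3% of the sites, those of crypt 64.5, 52.2 and 66.5%, and those of villus 74.8, 70.0 and 54.8%. The ranges of the compartments overlapped. Means were 51.1 ± 8.63% (SD, n = 3) for colon, 61.1 ± 7.73% for crypt and 66.5 ± 10.4% for villus. Colon minus crypt was -9.97 percentage points, colon minus villus -15.4 and crypt minus villus -5.46. These are descriptions with no test, because the pooled ATAC lists that chose the sites were made from the same samples, and 734 sites were chosen through SI alone but 66 through colon alone. At 141 sites (6.11%) no single ATAC sample had a peak, so they were open in a pooled list only, while 556 (24.1%) were called in all 9 samples.

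The VDR samples of colon called 22.3, 54.8, 58.0 and 72.0% of the sites, those of crypt 52.0, 31.5, 21.0 and 38.0%, and those of villus 60.1, 49.1, 27.3 and 48.2%. Samples of 1 compartment were as far apart as samples of different compartments. Means were 51.8 ± 21.0% (SD, n = 4) for colon, 35.6 ± 13.0% for crypt and 46.2 ± 13.7% for villus. Colon minus crypt was 16.2 percentage points (exact permutation test, two-sided, p = 0.229, adjusted p = 0.471), colon minus villus 5.58 (exact permutation p = 0.657, adjusted p = 0.657), and crypt minus villus -10.6 (exact permutation p = 0.314, adjusted p = 0.471), where the smallest possible p is 0.0286. The pooled VDR lists that chose the sites were made from these samples, with a peak required in all 3. Each site was also taken as the colon peak. The p-values of this paragraph therefore cannot decide whether compartments differ, and no conclusion is drawn from them. Without crypt 1, villus 1 and villus 2 the differences were 21.6, 14.03 and -7.61 (exact permutation, adjusted p = 0.5 each). Between crypt and villus, whose equal replicate numbers went together, crypt was the lower in 4 of 4 pairs (exact sign-flip permutation p = 0.125, the smallest that 4 pairs allow, adjusted p = 0.375). The median site was called in 5 of 12 samples. All 12 samples called 114 sites, no sample called 80, and 1293 sites had a call in at least 1 sample of every compartment.

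Open distal sites were called more often than closed distal ones. The closed distal shares were 13.6, 30.2, 48.9 and 55.7% for the colon samples, 53.3, 23.5, 13.7 and 33.4% for the crypt samples, and 49.7, 30.8, 15.0 and 41.8% for the villus samples. The open share was higher in 11 of 12 samples, crypt 1 being the exception, with a mean difference of 10.4 ± 6.81 percentage points (SD, n = 12, exact sign-flip permutation test, two-sided, p = 0.000977). Without crypt 1, villus 1 and villus 2 it was 10.8, with the open share higher in 9 of 9 samples. These 3 samples were set apart after the data had been seen and include the only one below 0, so no p-value is given. The split by open chromatin used no VDR value, but the sets differed in pooled strength, with a median colon -log10 q of 20.4 for open and 10.98 for closed distal sites. Within ranges of -log10 q the difference was 0.288 percentage points up to 10, 0.913 between 10 and 20, 1.53 between 20 and 50 and 6.84 above 50, and the open share was higher in 5, 7, 6 and 10 of 12 samples.

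Promoter sites were called at 12.1, 32.9, 45.5 and 63.9% by the colon samples, 84.5, 16.4, 8.20 and 21.0% by the crypt samples, and 66.6, 52.1, 8.87 and 37.8% by the villus samples. Open distal sites had the higher share in 9 of 12 samples, all but crypt 1, villus 1 and villus 2. The mean difference of 7.02 ± 14.9 percentage points did not exceed the spread between samples (SD, n = 12, exact sign-flip permutation p = 0.13). Without these 3 samples the difference was 14.03. They were set apart after the data had been seen and are the samples in which it was below 0. A test without them would have its outcome fixed in advance, so no p-value is given. With 1 sample left out the difference was 5.68 to 10.6. The highest value came without crypt 1, the sample of lowest difference, and an omission picked by that value cannot decide the question.

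**Figure D3:**
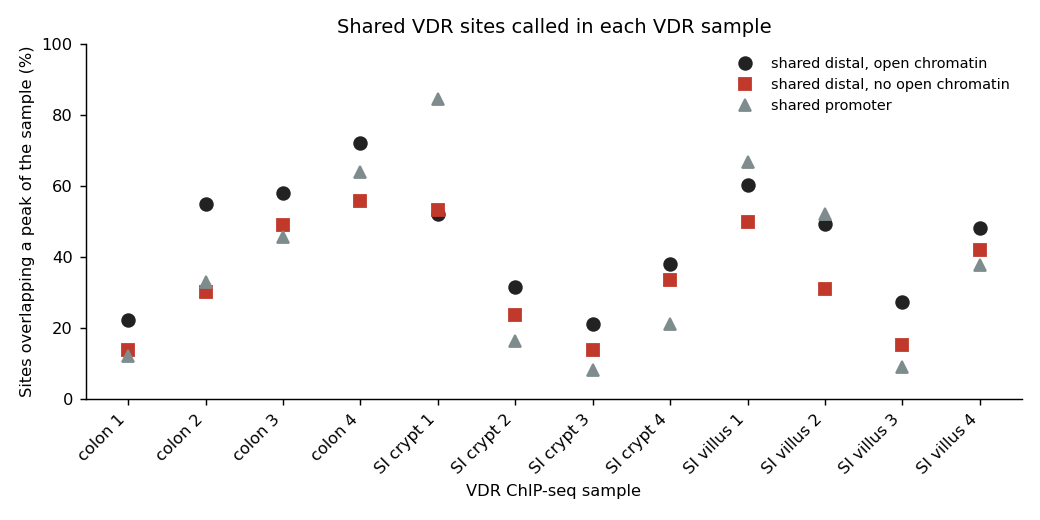
Percent of open distal, closed distal and promoter sites that overlapped a peak of each of the 12 VDR ChIP-seq samples (vertical axis, samples on the horizontal axis). The open distal share is above the closed distal share in every sample except crypt 1, and below the promoter share in crypt 1, villus 1 and villus 2.

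VDR calls differed with the compartment in which a site was open. The 66 sites open in colon alone were compared with the 734 sites open in crypt, villus or both and not in colon, a comparison that was added after the data had been seen. Open here refers to the pooled lists. No single ATAC sample had a peak at 16 of the 66 colon-open sites. The same held for 62 of 198 sites open in villus alone, 41 of 178 in crypt alone and 9 of 358 in both. Of the colon-open sites, the colon samples called 34.8, 54.5, 60.6 and 69.7%, against 15.7, 45.8, 51.1 and 69.2% of the SI-open sites. The crypt samples called 51.5, 19.7, 4.55 and 27.3% of the colon-open and 55.3, 34.2, 25.3 and 43.9% of the SI-open sites. For the villus samples these were 48.5, 24.2, 16.7 and 34.8%, and 61.6, 50.3, 27.2 and 55.4%. Colon-open sites thus had the higher share in 4 of 4 colon samples and the lower share in 8 of 8 SI samples. The colon-open minus SI-open share was 9.49 ± 7.65 percentage points over the colon samples (SD, n = 4) and -15.7 ± 6.90 over the SI samples (n = 8). These differed by 25.2 (exact permutation test, two-sided, p = 0.00202, the smallest that 4 against 8 samples can give). The difference was 23.4 with crypt alone and 27.1 with villus alone (exact permutation p = 0.0286 each), and 26.1 without crypt 1, villus 1 and villus 2 (exact permutation p = 0.00794).

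**Figure D4:**
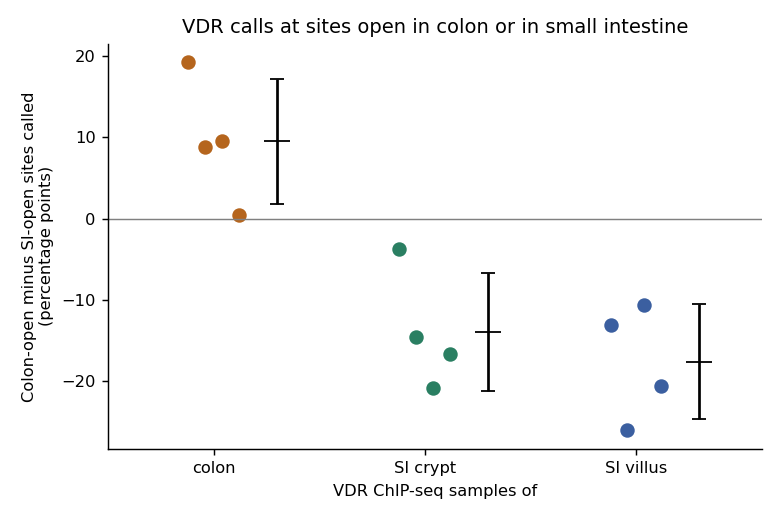
Percent of colon-open sites called minus percent of SI-open sites called (vertical axis, percentage points) in each VDR sample, by compartment, with the mean ± SD of 4 samples. The colon samples lie between 0.487 and 19.2, and all SI samples lie below 0, between -26.0301 and -3.80.

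Single sites of these patterns are given as a description, since they were chosen by pooled strength or as known targets. Barx2 encodes a homeobox factor, and a site in its intron at 53.6 kb was open in colon only, with an ATAC fold enrichment of 5.33, 6.26 and 6.74 and no ATAC call in SI. Its VDR fold enrichment, the ratio of pileup to local background, was 12.8, 25.3, 18.3 and 21.4 for colon, 16.6 and 16.8 for crypt 2 and 4, and 4.63 and 7.61 for villus 2 and 4, with no call in the other 4 SI samples. Hhat encodes the acyltransferase of hedgehog proteins, and its intron site at 26.1 kb was open in the pooled colon list only, although crypt 1 had an ATAC peak as well (5.07). It had 12.3, 27.2, 22.2 and 21.4 for colon, 9.87 for crypt 4 and 8.34 for villus 4, and no call in the other 6 SI samples.

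The Slc37a2 intron site at 9.26 kb, whose sequence is given above, was open in crypt (ATAC fold enrichment 5.63, 4.32 and 5.65) and villus (6.52, 5.65 and 6.08) and not in colon. Its VDR fold enrichment was 6.73, 4.83 and 8.49 for colon 2, 3 and 4, with no call in colon 1. It was 27.6, 29.9, 14.02 and 16.9 for crypt and 37.5, 41.9, 20.1 and 12.6 for villus, so that every SI sample was above colon 2, 3 and 4.

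Of the SI-open sites 34 of 734 held the GATA word (4.63%, 3.33 to 6.40%), and 0 of 66 colon-open sites (Wilson interval up to 5.50%), a difference not detectable with so few colon-open sites. DR3 with up to 1 mismatch had 21.9% (19.1 to 25.1%) in SI-open and 21.2% (13.1 to 32.5%) in colon-open sites. The AP-1 word had 9.54% (7.62 to 11.9%), 4.55% (1.56 to 12.5%) and, in sites open in all 3 compartments, 12.4% (10.7 to 14.2%).

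Peak size was compared between compartments at the 198 colon peaks called in all 12 samples, of which 114 were open distal sites. Log2 fold enrichments were centred on each sample's median, limma was fitted over the 198, and an adjusted p below 0.05 was the threshold. Against crypt, 3 of the 114 sites were higher in colon and 3 were lower (2.63% each), where 2.02% and 2.02% of all peaks tested were called. Against villus, 5 were higher in colon (4.39%, all peaks 4.04%) and 8 were lower (7.02%, all peaks 5.56%). Both are near the background. Between crypt and villus limma called 0 sites in either direction (all peaks 0%), and an unadjusted p below 0.05 was found for 2 higher and 3 lower in crypt. The median log2 difference of the 114 sites was 0.03, 0.02 and 0.01 for the 3 contrasts, and that of all 198 peaks -0.03, -0.03 and 0.01. Without centring, the medians over all peaks were -0.20, -0.41 and -0.20, and the sites called were 0 against crypt and 2, both lower in colon, against villus, so that the directions below are relative to the sample median.

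The Ptprj site was lower in colon than in crypt and in villus. Ptprj encodes a receptor-type protein tyrosine phosphatase, and the site is in its intron at 92.4 kb. VDR fold enrichment was 10.8, 21.7, 17.3 and 24.0 for colon, 37.7, 41.5, 21.7 and 26.7 for crypt, and 42.6, 44.6, 27.3 and 23.2 for villus. Most SI samples were above all colon samples, but the highest colon sample was above crypt 3 and villus 4. The log2 difference was -0.64 ± 0.12 (SE) (limma, adjusted p = 0.00644, held in 8 of 8 omissions) for crypt and -0.53 ± 0.12 (limma, adjusted p = 0.00887, held in 8 of 8 omissions) for villus, where an omission leaves out 1 of the 8 samples. No single ATAC sample had a peak there, and only the pooled crypt list did.

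The site at -12.5 kb from Kdm2b, a histone demethylase gene, lies in an intron of Orai1, the gene of a store-operated calcium channel. Its VDR fold enrichment was 5.53, 13.6, 9.31 and 14.1 for colon, 22.5, 28.4, 16.7 and 15.8 for crypt, and 30.7, 33.1, 18.1 and 14.5 for villus. All SI samples were above all colon samples. The log2 difference was -0.86 ± 0.19 (SE) (limma, adjusted p = 0.0152, held in 7 of 8 omissions) for crypt and -0.81 ± 0.19 (limma, adjusted p = 0.00887, held in 8 of 8 omissions) for villus. ATAC fold enrichment was 6.53, 6.71 and 4.53 for crypt, and no colon or villus sample had an ATAC call.

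Nhlrc3 is the nearest gene, at 201 kb, of a site that was higher in colon. It had 16.2, 29.6, 23.5 and 26.9 for colon, 12.8, 19.8, 14.03 and 19.6 for crypt, and 23.6, 15.0, 11.7 and 16.2 for villus. The ranges overlapped through the lowest colon sample and villus 1. The log2 difference was 0.69 ± 0.19 (SE) (limma, adjusted p = 0.0435, held in 1 of 8 omissions) for crypt and 0.92 ± 0.19 (limma, adjusted p = 0.00836, held in 8 of 8 omissions) for villus. Ctnna1 encodes alpha-catenin of the adherens junction, and its site at -53.3 kb had 6.86, 14.1, 15.7 and 20.1 for colon, 6.72, 5.18, 7.62 and 7.02 for crypt, and 11.5, 11.7, 5.72 and 8.18 for villus. The lowest colon sample lay within both SI ranges. The log2 difference was 1.17 ± 0.27 (SE) (limma, adjusted p = 0.0195, held in 5 of 8 omissions) for crypt and 0.94 ± 0.27 (limma, adjusted p = 0.0332, held in 3 of 8 omissions) for villus. The intron site of Mbp, the gene of myelin basic protein, held a strict DR3 and was open in the pooled colon list only. Of the single ATAC samples colon 3 alone had a peak there (fold enrichment 3.76). VDR at this site was higher in colon than in crypt by 0.86 ± 0.24 (SE) (limma, adjusted p = 0.0435, held in 2 of 8 omissions).

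Against villus alone, a site at 17.3 kb from 4930408O17Rik was higher in colon by 1.04 ± 0.25 (SE) (limma, adjusted p = 0.0132, held in 8 of 8 omissions). It had 10.2, 21.0, 13.9 and 15.9 for colon and 11.4, 7.85, 8.29 and 10.0 for villus, ranges that overlapped through 1 sample of each. The site nearest to Bmp2, the gene of a bone morphogenetic protein, at 322 kb, had 6.47, 9.28, 5.93 and 9.81 for colon and 27.1, 22.7, 13.2 and 17.5 for villus. Every villus sample was above every colon sample, and the log2 difference was -0.96 ± 0.22 (SE) (limma, adjusted p = 0.00887, held in 8 of 8 omissions). Sites near Sdcbp2, the gene of syntenin-2, and Capzb, that of an actin capping subunit, were lower in colon by -0.96 ± 0.26 (SE) (limma, adjusted p = 0.0276, held in 4 of 8 omissions) and by -0.85 ± 0.23 (SE) (limma, adjusted p = 0.0227, held in 4 of 8 omissions).

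**Figure D5:**
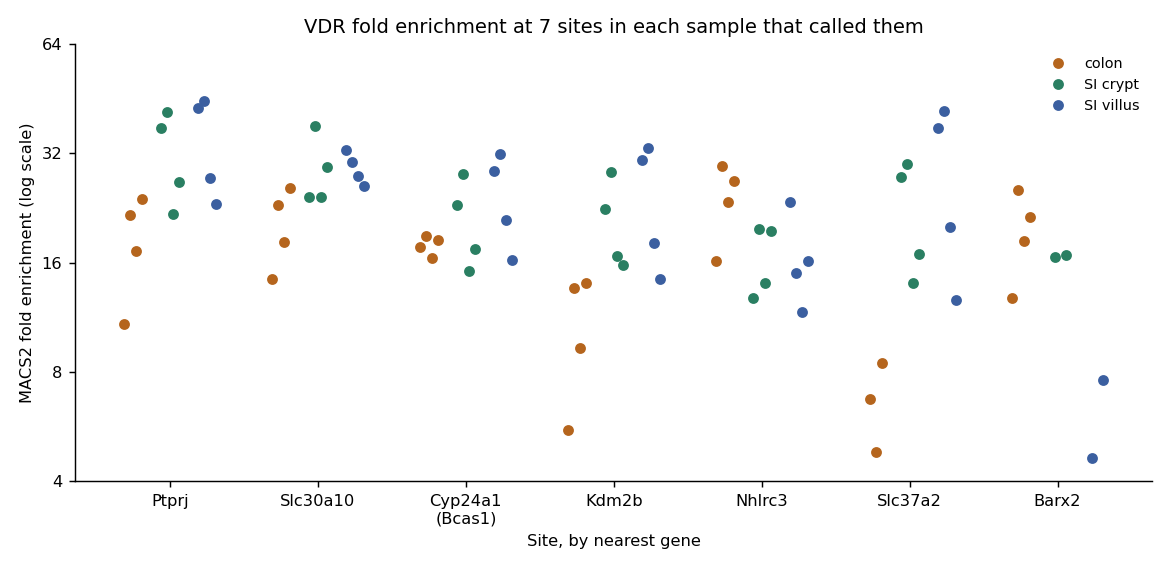
VDR fold enrichment (vertical axis, log scale) at 7 open distal sites, named by gene (horizontal axis), with 1 point for every sample that called the site. At Kdm2b and Slc37a2 all SI points lie above the colon points shown (Slc37a2 had no call in colon 1), and at Barx2 the villus points, 4.63 and 7.61, lie below all 4 colon points.

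Slc30a10 encodes a manganese exporter of the cell surface, and its 6 sites all lay downstream of its start. The strongest, at 47.9 kb, had 14.4, 23.0, 18.2 and 25.8 for colon, 24.3, 38.1, 24.3 and 29.4 for crypt, and 32.8, 30.3, 27.7 and 25.98 for villus. The colon range overlapped that of crypt and was below that of villus, and limma made no call at this site. All 9 ATAC samples had a peak, with a fold enrichment of 13.2 to 17.2 for colon, 10.3 to 13.3 for crypt and 8.93 to 11.6 for villus. At 28.98 kb the VDR values were 10.5, 11.7, 10.3 and 10.997 for colon, 12.9, 11.8 and 13.3 for crypt 2, 3 and 4, and 8.75 and 10.4 for villus 3 and 4. Crypt 1, villus 1 and villus 2 had no call there. The sites at 8.12, 14.6, 54.3 and 61.2 kb had a colon -log10 q of 6.32 to 32.7 and were called in 1 to 6 VDR samples.

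Cyp24a1 encodes the enzyme that inactivates 1,25(OH)2D3, and 3 sites lay 35.3, 39.5 and 42.9 kb downstream of its start, with the start of Bcas1 as the nearest. Every VDR sample called all of them. At 35.3 kb the fold enrichment was 17.6, 18.9, 16.5 and 18.5 for colon, 23.1, 28.1, 15.2 and 17.4 for crypt, and 28.6, 31.8, 20.9 and 16.2 for villus. The colon samples were close together and lay within both SI ranges. ATAC calls were few, 3.94 for colon 3 and 5.21, 5.30 and 5.92 for crypt, with none for villus. At 42.9 kb VDR had 7.26 to 11.9 for colon, 9.21 to 13.8 for crypt and 9.71 to 16.5 for villus, and 8 of 9 ATAC samples had a peak. The site at 39.5 kb, whose window had 2 copies, had 3.16 to 5.47, 4.45 to 6.37 and 3.85 to 7.39, and all 9 ATAC samples had a peak. The strongest VDR site of the 3 was thus the one with the fewest ATAC calls.

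Among the genes of calcium absorption, Trpv6 had 1 site, at -1.97 kb. Its VDR fold enrichment was 8.27, 6.13 and 7.90 for colon 2, 3 and 4, 8.76 for crypt 2 and 7.66 for villus 1, and the other 7 samples had no call. It was open in the pooled crypt list, and no single ATAC sample had a peak. The S100g site, at -22.7 kb in an intron of Ctps2, had 7.13, 14.8, 9.32 and 11.6 for colon, 12.0, 10.4 and 15.0 for crypt 2, 3 and 4, and 11.1 and 15.0 for villus 3 and 4. ATAC peaks were present there in crypt alone (5.07, 4.47 and 4.16).

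Atp2b1 encodes the calcium pump of the basolateral membrane. Its strongest site, at -321 kb, had 19.6, 28.4, 25.9 and 23.3 for colon, 24.6, 21.1 and 25.9 for crypt 2, 3 and 4, and 25.7 and 25.2 for villus 3 and 4. As at the S100g site, crypt 1, villus 1 and villus 2 had no call, while all 9 ATAC samples had a peak. Of 145 sites called in each of the other 9 VDR samples, 14 were called in none of these 3. The weaker Atp2b1 site at -34.7 kb was called at 15.1, 14.1, 7.08 and 11.3 by the villus samples, at 9.02 and 6.11 by crypt 2 and 4 and at 8.50 by colon 4. The one at -50.3 kb was called by all 4 colon samples, at 5.22, 5.67, 5.69 and 6.58, and otherwise by villus 4 alone (5.27).

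Other strong sites had ranges that overlapped between compartments. Pabpc1, the gene of a poly(A)-binding protein, had one in its intron at 1.01 kb, with 9.77, 17.7, 17.1 and 21.6 for colon, 26.8, 30.7, 14.7 and 13.8 for crypt, and 36.9, 43.3, 17.5 and 15.3 for villus. The site at -36.3 kb from Ncor1, a corepressor of nuclear receptors, had 14.4 to 27.5 for colon, 17.8 to 32.1 for crypt and 15.7 to 34.4 for villus. The Daglb site with the strict DR3 had 12.3, 21.4, 25.8 and 25.6 for colon, 26.1, 25.4, 11.8 and 16.2 for crypt, and 32.8, 33.1, 17.3 and 15.3 for villus. The intron site of Parm1, the gene of a mucin-like membrane protein, had 9.53, 20.1, 13.0 and 19.6 for colon and 33.9, 34.2, 24.7 and 22.6 for villus, which did not overlap. It was lower in colon by -0.56 ± 0.14 (SE) (limma, adjusted p = 0.0181, held in 6 of 8 omissions).

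Lists of genes of intestinal function were read against the sites. Of 259 list genes in the annotation, 37 (14.3%) were the nearest gene of a site within 10 kb, compared with 667 of 22367 protein-coding genes (2.98%). The lists were drawn up with earlier results of these data known, so these shares are a description, and nearness does not show which gene a site acts on. Of 25 intestinal transcription factors 8 had such a site. Hes1, the Notch-responsive repressor, had one at 2.63 kb with a -log10 q of 113, 83.8 and 120 in the pooled colon, crypt and villus lists, called in 4 colon, 4 crypt and 3 villus samples. The secretory lineage factor Atoh1 had one at -1.01 kb (103, 51.7 and 19.2), called in 3 colon, 2 crypt and 2 villus samples. Cdx2, a factor of intestinal identity, had one at 7.25 kb (96.3, 36.0 and 31.4), called in 4 colon, 3 crypt and 4 villus samples. The sites within 10 kb of Cdx1, Klf4, Klf3, Elf3 and Gata6 had a colon -log10 q of 2.80 to 68.1. Stronger ones lay farther away for 2 of these genes. Elf3 had a site at 40.7 kb (355, 266 and 431) that all 12 VDR samples called. Klf3 had a site at -93.0 kb (117, 32.5 and 54.6), called in 4 colon, 1 crypt and 3 villus samples.

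Of 19 genes of cell junctions 4 had a site within 10 kb, led by that of Cldn7, a claudin of the epithelium, at 4.21 kb (78.3, 32.1 and 33.2). Those of Cldn23, Tjp3 and Cgn had a colon -log10 q of 3.74 to 10.5. Of 26 genes of lipid handling 3 had one, among them Ppard, a nuclear receptor that senses fatty acids, at -2.26 kb (86.8, 204 and 337). The phosphate cotransporter gene Slc34a2 had one at 7.43 kb (195, 120 and 240), called in 4 colon, 3 crypt and 4 villus samples. Of 20 nuclear receptors 2 had one, and that of Nr1i2, the pregnane X receptor, at 5.80 kb (39.2, 70.3 and 193) was open in villus only. Of 15 genes of iron and heme 2 had one within 10 kb and 6 within 100 kb, where 7.23% of all protein-coding genes had one, among them the Bach1 site with the strict DR3 (116, 207 and 170).

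Vdr itself was the nearest gene of a site at -19.3 kb (38.9, 98.0 and 103), called in 3 colon, 4 crypt and 4 villus samples, and of a weaker one at 5.03 kb (7.71, 5.38 and 8.50) that no single sample called. Of 16 AP-1 and immediate early genes 2 had a site within 10 kb and 6 within 100 kb (12.5% and 37.5%, all genes 2.98% and 7.23%). Fos, a subunit of AP-1, had 3 within 100 kb, with a colon -log10 q of 33.7 to 46.3. Of 23 genes of growth control 1, the cell cycle inhibitor gene Cdkn1a, had a site within 10 kb, with a -log10 q of 4.17, 8.59 and 9.89. Within 100 kb 10 of them had a site, Ptprj among them (43.5%, all genes 7.23%). None of 12 prostaglandin genes was the nearest gene of a site within 100 kb. The other lists had 1 to 3 genes with a site within 10 kb.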

How the data were processed

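VDR ChIP-seq (4 samples per compartment) and ATAC-seq (3 per compartment) were analysed from the peak lists. Per the submitters' processing notes and the methods, the authors used mm9, Bowtie2 2.2.6 and MACS2 2.1.0.20150731 without a control, at a q threshold of 0.05, on single and on pooled samples. The -log10 q values deposited are those of MACS2. The fold enrichment deposited is the ratio of pileup to local background. Without read counts, a missing call is no value of 0. The authors' differential sets were not used.

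Sites and windows were computed with Python 3.11.15 and pysam 0.24.0 on mm9 with 22367 protein-coding genes, every protein-coding transcript start being a TSS. Distances run along the gene, negative upstream, and kb values are from the nearest start, except for Cyp24a1. A sample called a site when a peak shared 1 bp with it. Sample shares were compared by exact permutation tests with Benjamini-Hochberg adjustment, and fold enrichments with limma 3.58.1 (R 4.3.3), tested on simulated data. Named were the strongest sites of each compartment, with DR3 and per open pattern, the 3 largest called differences per contrast and direction, the genes with most sites, list genes and 8 known targets. Some are left out, a pair of sites that the rule names is not reported here, and Parm1 came from the strongest sites. Alternatives were other overlaps, thresholds, windows and distances, a replicate block and samples left out. Members, lists and motifs were chosen with earlier results of these data known. Equal replicate numbers paired crypt with villus, from the data and not from the labels, since all 4 pairs had deviations correlated at 0.2004 to 0.734, although crypt 1 correlated slightly more with villus 2 (0.640) than with villus 1 (0.609).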

Additional observations from a re-analysis of the deposited data

Results flagged for a closer look

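Of 97 groups of 4 VDR samples examined for a sample far from the others, 2 held one, and chance alone would give about 1 in 20. Both were in crypt and came from the same sample. Crypt 1 called 84.5% of the shared promoter sites, against 8.20 to 21.0% in the other 3 crypt samples, and its open distal minus promoter difference was -32.5 percentage points, against 12.8 to 17.0 in the others. This sample had the most peaks of all VDR samples (13381) and the fewest distinct fragments (3100376), and the part of either in its values was not tested.

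The colon-open minus SI-open difference in calls differed between colon and SI samples by 25.2 percentage points (two-sided exact permutation test, p = 0.00202, 4 against 8 samples), with the sign opposite in the 2 groups in all 12 samples.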

How the results depend on the processing

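The number of sites, 2308, was 1323 where 50% of the colon peak had to be covered and 1352 where open chromatin was asked of all 3 compartments. The strict DR3 share was 2.08% in windows of 100 bp, and 16.7% and 47.5% with up to 1 and 2 mismatches, both added after seeing the data. List genes near a site were 74 within 50 kb (28.6%, all genes 6.37%), 78 within 100 kb (30.1%, all genes 7.23%) and, with any site within 100 kb, 128 (49.4%, all genes 24.7%, added later). Open minus closed kept its sign in all 20 alternatives, but 4 samples of 1 compartment (14.7 for colon, 4.63 for crypt, 11.8 for villus) cannot give an exact permutation p below 0.125. Open minus promoter passed the threshold with sample peaks of -log10 q of at least 5 (9.74). It was 5.68 to 10.6 with 1 sample left out. Of these omissions only that of crypt 1 (10.6), the sample of lowest difference, passed the threshold, so that pass cannot decide. Without crypt 1, villus 1 and villus 2 the difference was 14.03 (added later). That setting leaves out the samples in which the difference was below 0, so its test cannot decide. Colon minus villus in VDR calls was -1.16 to 15.4 with 1 sample left out, and below 0 without colon 4 (-1.16) or villus 3 (-0.719). Colon minus crypt in ATAC calls was 7.45 where 50% of the site had to be covered, and the cause was not tested. The difference between colon-open and SI-open sites kept its call in all 19 alternatives.

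The limma calls between colon and crypt, 6, were 0 without centring, 11 with sites called in 3 samples of each compartment, 19 without the 3 samples that stood apart, and 1 to 6 with 1 sample left out (1 without crypt 2, 2 without colon 3 or colon 4, 3 without crypt 3). Between colon and villus, 13, they were 2, 25 with the wider set, and 6 to 21 with 1 sample left out (6 without colon 3, 7 without colon 4, villus 1 or villus 2, 8 without villus 3, 21 without villus 4). With a replicate block the latter count was 20. The numbers did not pair colon with SI samples, where 2 of 8 same-numbered pairs had deviations correlated above 0.1. The block changed no call between crypt and villus.

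The peak lists hold called peaks only, so a weak site and an unbound one cannot be told apart, and fold enrichments were compared only at sites called in every sample. Only 66 sites were open in colon alone.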
